A study of Rattus norvegicus with 14 samples.

Results

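Transcripts of 7 genes for proteins at or under the cell membrane were followed in rat liver after feeding with or without vitamin A: the S100 proteins S100a10 and S100a4, the annexins Anxa1, Anxa2 and Anxa5, and the membrane proteins Ifitm3 and Myadm. The genes were chosen by name, with results of the same diet comparison known, and every probe set whose platform symbol was one of the 7 was taken. All 7 genes were found, by 9 probe sets, among 4736 genes with a probe set of a single symbol. A probe set is a group of short oligonucleotides on the array that together measure a transcript. Of the 9 probe sets, 7 passed the filter on dim signal described with the processing, at least 1 for each gene, and the second probe sets of Anxa1 and Anxa5 did not. Because the diet difference chose the genes, their diet values are given as a description with no test.

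The livers came from male rats aged 74 days that had been fed a special diet for 53 days, titled vitamin A sufficient in the control group and vitamin A deficient in the other. Each diet had 7 arrays. Of these, 4 (numbered 1 to 4) started from about 10 µg of total RNA and 3 (numbers 1, 2 and 4) from about 2 µg. The mean of the arrays that share a diet and a number is called an animal, giving n = 4 per diet, and animal 3 of each diet has only a 10 µg array. No strain is given in the labels, which do not tie arrays to livers, and p-values thus measure only the spread between these samples. All 7 tested markers of hepatocytes were bright, with albumin (Alb) at 15.33 ± 0.15 in sufficient and 15.52 ± 0.11 in deficient livers (log2 level, mean ± SD, n = 4). Levels are log2 of the scaled intensity plus 16, and single arrays are given as the deposited linear intensity. Precision is limited by how few arrays there are, and levels of different probe sets cannot be set against each other.

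Annexins bind acidic membrane phospholipids when calcium is present and link membranes to the actin skeleton and to vesicle traffic. S100 proteins are small calcium-binding dimers that dock onto partners, and S100a10, which no longer binds calcium, joins Anxa2 in a tetramer that carries channels to the surface and binds plasminogen. Ifitm3 sits in late endosomes, where it hinders the entry of enveloped viruses, and is known as a target of interferon. Myadm is a protein with several membrane spans that belongs to the MAL family and organizes cholesterol-rich membrane domains. In liver, S100a4, Anxa1 and Anxa2 are known mainly from bile duct, immune and mesenchymal cells rather than from resting hepatocytes.

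The promoters of Ifitm3 and S100a4 are shown because each holds a match to a motif searched for. Those in Ifitm3 are motifs of the interferon response. The match in S100a4 is a lone hexamer, only a part of the paired motif of the retinoic acid receptor. This receptor responds to the active form of vitamin A. RefSeq sequences (GRCr8 assembly, 250 bases before to 50 bases after the gene start) were at hand for 5 of the 7 genes, S100a4, Anxa1, Anxa2, Anxa5 and Ifitm3. Capitals mark every match, searched on both strands, to the interferon-stimulated response element GAAANNGAAA, the gamma-activated site TTCNNNGAA and the hexamer AGGTCA. The Ifitm3 window is chr1:205541709-205542008 on the minus strand and the S100a4 window is chr2:178388279-178388578 on the plus strand.
Ifitm3: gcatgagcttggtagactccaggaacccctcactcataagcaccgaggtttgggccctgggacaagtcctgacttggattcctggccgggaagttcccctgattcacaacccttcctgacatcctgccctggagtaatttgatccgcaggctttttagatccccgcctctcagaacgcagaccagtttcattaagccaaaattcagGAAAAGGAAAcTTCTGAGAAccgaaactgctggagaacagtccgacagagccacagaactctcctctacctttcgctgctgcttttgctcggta
S100a4: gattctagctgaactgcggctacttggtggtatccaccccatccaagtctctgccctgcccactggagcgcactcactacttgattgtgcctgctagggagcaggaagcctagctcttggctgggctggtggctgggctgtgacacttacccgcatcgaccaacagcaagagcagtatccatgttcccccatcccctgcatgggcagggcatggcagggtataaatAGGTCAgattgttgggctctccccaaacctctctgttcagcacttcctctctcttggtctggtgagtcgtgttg
In Ifitm3 the response element begins 44 bases before the start and the gamma-activated site 33 bases before it, and they do not overlap. In S100a4 the hexamer begins 24 bases before the start. Of 33469 rat promoters of that length, 3.92% held the response element, 8.87% the gamma-activated site and 16.2% the hexamer. The Anxa1, Anxa2 and Anxa5 windows held none of these letters, and none of the 5 windows held 2 hexamers as a direct repeat with a gap of 2 or 5 bases. A match is a description of the letters, and binding was not measured. The lone hexamer of S100a4 is therefore not counted as a site of the receptor.

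S100a10 was the brighter in deficient livers on every array. In sufficient livers its probe set J03627_at read 165.7, 143, 115.3 and 159.2 on the 10 µg arrays of animals 1 to 4 and 206.9, 137.5 and 188.4 on the 2 µg arrays of animals 1, 2 and 4. In deficient livers it read 342.9, 293.3, 352.2 and 327.6 on the 10 µg arrays and 349, 225.1 and 326.9 on the 2 µg arrays. The highest sufficient array, 206.9, lay under the lowest deficient array, 225.1, and both of these came from 2 µg of RNA. The level was 7.46 ± 0.19 in deficient and 6.52 ± 0.25 in sufficient animals (mean ± SD, n = 4), a difference of 0.94 on the log2 scale (SE 0.16), or 1.91-fold. Whole liver was measured, so more cells of a type and more RNA per cell cannot be told apart here or below.

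S100a4, a protein of motile cells that binds myosin, had a smaller difference. Its probe set X06916_at read 208.8, 202, 242.1 and 184.3 on the sufficient 10 µg arrays and 212.6, 232.3 and 320.8 on the 2 µg arrays. The deficient arrays read 372.2, 430.8, 327.2 and 271.1 from 10 µg and 430, 327.3 and 364.3 from 2 µg. Of the 7 deficient arrays 6 lay above every sufficient array; the exception was animal 4 at 10 µg, under the sufficient 2 µg array that also carries number 4. The averaged levels did not overlap, at 7.53 ± 0.14 in deficient and 6.96 ± 0.13 in sufficient animals, a difference of 0.57 (SE 0.09) or 1.48-fold. In the GRCr8 annotation S100a4 lies between S100a3 and S100a5, and S100a10 lies next to S100a11, so both have S100 genes as neighbours.

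Among the annexins, Anxa2, the partner of S100a10, differed by less than S100a10 itself. On sufficient arrays its probe set L13039_s_at read 675.5, 695.7, 775 and 846.7 from 10 µg and 731, 731.9 and 826.8 from 2 µg. On deficient arrays it read 1047.9, 965.9, 1060.1 and 941.1 from 10 µg and 951.7, 824.7 and 1067.6 from 2 µg. The 2 diets overlapped by 1 array, the deficient 2 µg array of animal 2. The averaged levels were 9.01 ± 0.10 and 8.63 ± 0.11, a difference of 0.37 (SE 0.07) or 1.29-fold in deficient over sufficient livers. The lowest deficient animal, at 8.87, was 0.09 above the highest sufficient animal, at 8.78.

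Anxa1, known for dampening inflammation downstream of glucocorticoids, was measured by a pair of probe sets. The brighter, S57478cds_s_at, read 151.3, 150.1, 215.6 and 141.4 on the sufficient 10 µg arrays and 162.7, 126.2 and 157.3 on the 2 µg arrays. It read 211.4, 222.1, 220.9 and 195.5 on the deficient 10 µg arrays and 159.9, 157.3 and 160 on the 2 µg arrays. The deficient arrays were thus higher than 3 of the 4 sufficient ones at 10 µg, while at 2 µg the diets overlapped. The averaged levels, 6.88 ± 0.08 and 6.68 ± 0.20, differed by 0.20 (SE 0.11), and sufficient animal 3, at 6.96, lay above deficient animals 1, 2 and 4. The other Anxa1 probe set, rc_AI171962_s_at, was under the filter, with arrays from 33.9 to 138.8 (median 101.3) in sufficient and from 91.6 to 291.4 (median 104.9) in deficient livers, and a difference of 0.51 (SE 0.18) that was 0.70 (SE 0.42) at 10 µg and 0.16 (SE 0.41) at 2 µg.

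Anxa5, which binds phosphatidylserine on dying cells, showed no separation of the diets. Its brighter probe set, D42137exon_s_at, read 730.4, 618.1, 750.6 and 289.6 on the sufficient 10 µg arrays and 616.2, 846.4 and 511.8 on the 2 µg arrays. It read 752.6, 400.2, 543.1 and 498.9 on the deficient 10 µg arrays and 646.6, 613.4 and 570.8 on the 2 µg arrays. All deficient arrays lay within the sufficient range. The averaged levels were 8.13 ± 0.20 in deficient and 8.25 ± 0.45 in sufficient animals, a difference of -0.12 (SE 0.25), which was -0.33 without sufficient animal 4, the lowest of its diet, and 0.01 without sufficient animal 3. The second probe set, AF051895_at, was under the filter, with arrays from 29.5 to 153.7 (median 94.5) in sufficient and from 61.3 to 171.8 (median 111.2) in deficient livers. It gave -0.12 at 10 µg but 0.97 at 2 µg, so its averaged difference of 0.39 (SE 0.22) holds for 1 of the 2 amounts.

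Ifitm3 had a diet difference close in size to those of S100a10 and Myadm, and which of the 3 was the largest changed with the amount of RNA and other settings. On the sufficient arrays its probe set X61381cds_s_at read 4609.6, 4624.1, 4597.6 and 6291.3 from 10 µg and 4886.5, 4552.3 and 6741.5 from 2 µg. On the deficient arrays it read 10822.4, 7104.4, 13490.5 and 10099.9 from 10 µg and 10337, 6833.8 and 11430 from 2 µg. Each animal was repeated closely by its second array, since the 2 arrays of an animal differed by a median of 0.07 and at most 0.18 on the log2 scale. Sufficient animal 4 was therefore high, and deficient animal 2 low, on both of its arrays, and the diets were separated by only 6741.5 against 6833.8. The averaged levels were 12.31 ± 0.40 and 11.31 ± 0.24, a difference of 1.00 (SE 0.23) or 2.01-fold, and 1.12 without sufficient animal 4. In the annotation Ifitm3 lies between Ifitm1 and Ifitm6, and its probe set carries the suffix s_at, used for sets that may also detect related transcripts, which leaves the source of this value uncertain. The probe set of Anxa2, both of Anxa1 and the brighter one of Anxa5 carry the same suffix and share this limit.

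Myadm separated the diets by the widest gap of the 7 genes. Its probe set rc_AA866276_at read 1325.4, 1283.4, 1435.4 and 1654.1 on the sufficient 10 µg arrays and 1184.3, 933.8 and 1107.3 on the 2 µg arrays. It read 3048, 2367.4, 2475.8 and 2603.8 on the deficient 10 µg arrays and 2147.7, 1853.2 and 2811 on the 2 µg arrays. No deficient array reached down to a sufficient one. The averaged levels were 10.41 ± 0.17 and 9.49 ± 0.13, a difference of 0.92 (SE 0.11) or 1.89-fold, and the lowest deficient animal was 0.62 above the highest sufficient animal.

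**Figure D1:**
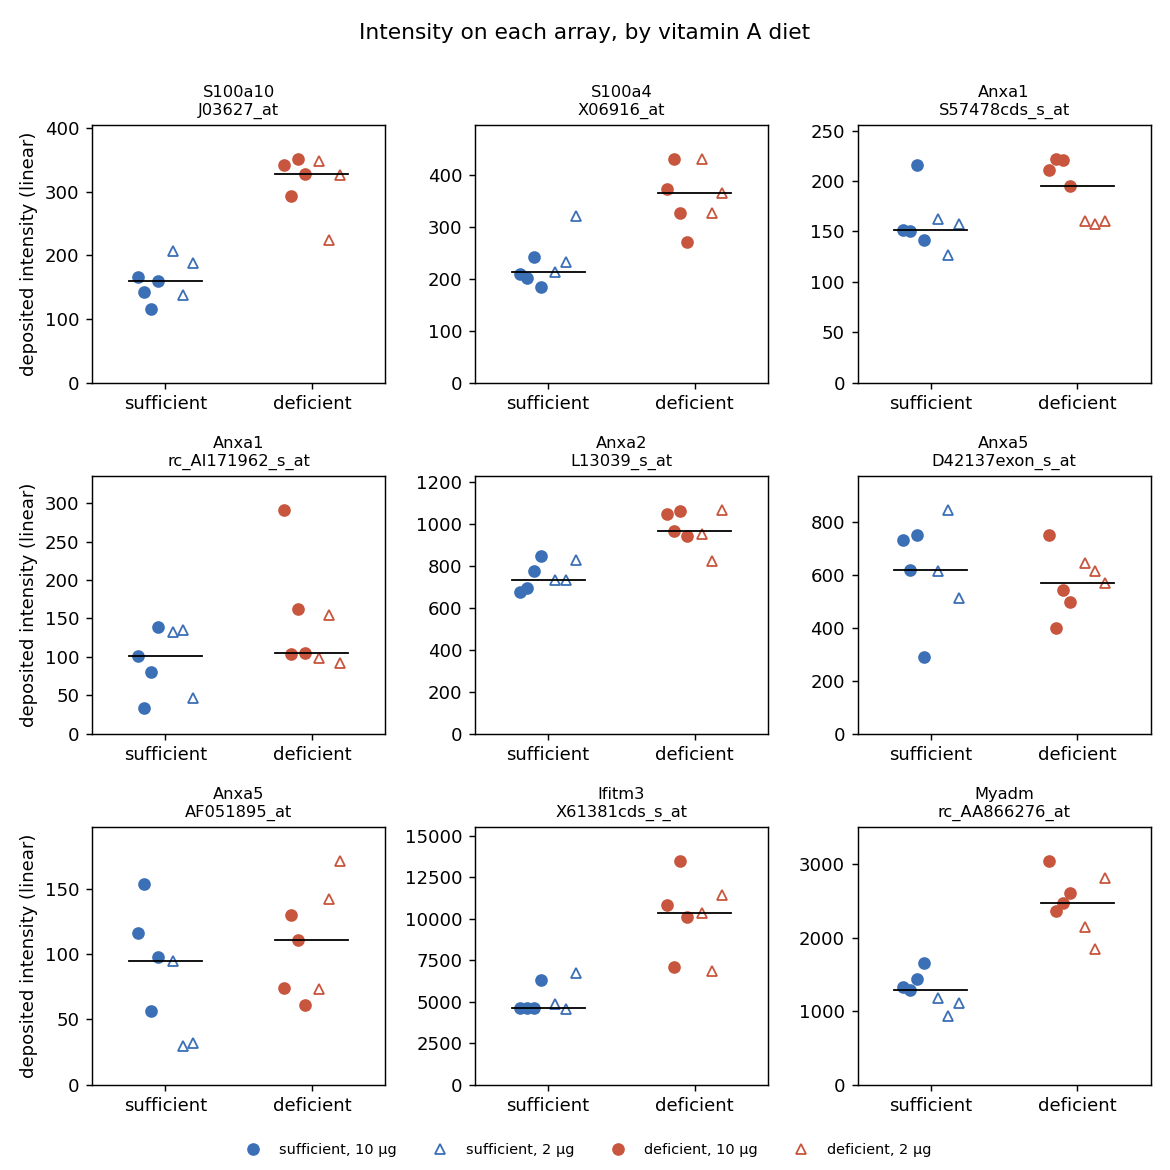
Deposited linear intensity of the 9 probe sets (vertical axes from 0, a scale for each panel) on the 7 sufficient (blue) and 7 deficient (red) arrays; filled circles are arrays from 10 µg of RNA, open triangles arrays from 2 µg, and black lines the median of a diet. For S100a10, Ifitm3 and Myadm all 7 deficient arrays lie above all 7 sufficient arrays, whereas the Anxa5 arrays overlap throughout.

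Counted over the 9 probe sets, 8 had a higher mean in deficient animals and 1 a lower one. The 4 deficient animals all lay above the 4 sufficient animals for 5 probe sets (S100a10, S100a4, Anxa2, Ifitm3 and Myadm), which is true of 5.84% of the 5244 probe sets tested, while the reverse, all 4 deficient animals below, held for 0 of the 9 and 3.07% of those tested. All 7 deficient arrays lay above all 7 sufficient arrays for 3 of the 9, against 1.56% of the probe sets tested. The genes were chosen from this contrast, so nothing is read from these shares. Ordered by the size of the diet difference among the 5244, Ifitm3 ranked 95, S100a10 108, Myadm 112, S100a4 398, Anxa2 905, Anxa1 2150 and Anxa5 3158. Over all probe sets the median difference was 0.04, and it was -0.02 once arrays were set to a common median. That setting gave 0.94 for Ifitm3, 0.88 for S100a10, 0.85 for Myadm, 0.51 for S100a4 and 0.31 for Anxa2.

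The animals of a diet were not alike. Deficient animal 2 was the lowest of its diet for 5 of the 9 probe sets, namely S100a10, Anxa2, Ifitm3, Myadm and the brighter one of Anxa5. Relative to the mean of the sufficient animals, Ifitm3 was 0.46 in deficient animal 2 and 1.42 in deficient animal 3, with animals 1 and 4 at 1.06 and 1.08. S100a10 ran from 0.66 in animal 2 to 1.07 in animal 3, and Anxa2 from 0.23 to 0.47 in the same 2 animals. Myadm was lowest in animal 2, at 0.74, but highest in animal 4, at 1.1. S100a4 had another order, from 0.39 in animal 4 to 0.71 in animal 1. The 3 genes with the largest differences therefore shared their lowest deficient animal, while S100a4 did not follow them.

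**Figure D2:**
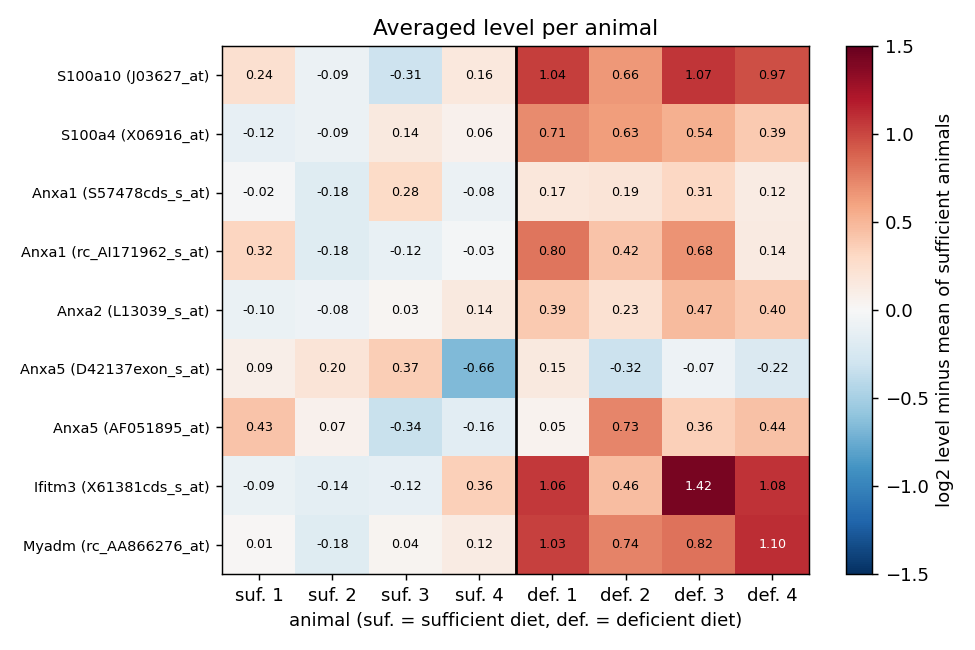
Averaged log2 level of each probe set (rows) in each animal (columns, sufficient diet left of the line and deficient diet right of it), minus the mean of the sufficient animals, in colour and digits. Ifitm3 spans 0.46 to 1.42 over the deficient animals, and animal 2 is the lowest of them for S100a10, Anxa2, Ifitm3 and Myadm.

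The amount of RNA was not used to choose the genes, so it was tested. Of the 7 genes, each by its probe set that passed the filter, none passed an adjusted p of 0.05 in limma between 2 µg and 10 µg, and 0 of all 5244 probe sets did (0% called), with 347 at an unadjusted p under 0.05. With diet and number as a block, 2 probe sets were called (0.0381%), neither of them from the 7 genes. Myadm had the smallest p of the 7, at 9.64 ± 0.61 from 2 µg (SD, n = 6) and 9.95 ± 0.49 from 10 µg (n = 8), a difference of -0.31 (SE 0.11, limma adjusted p = 0.601), and its 2 µg array was the lower in 5 of 6 pairs. Ifitm3 differed by -0.01 (SE 0.15, limma adjusted p = 0.998), S100a10 by 0.05 (SE 0.15), Anxa2 by -0.03 (SE 0.09), S100a4 by 0.17 (SE 0.13), Anxa5 by 0.18 (SE 0.19) and Anxa1 by -0.23 (SE 0.14). These values took the arrays as separate samples, so their SEs include spread between animals, and the SDs of Myadm span both diets. With the block, Myadm differed by -0.32 (SE 0.09, limma adjusted p = 0.227), Ifitm3 by 0.04 (SE 0.05) and S100a10 by 0.02 (SE 0.15).

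Whether the diet difference itself depended on the amount was asked by the interaction of diet and amount. It passed for none of the 7 genes, each at a limma adjusted p of 1, and for 0 of 5244 probe sets (0% called), with 96 at an unadjusted p under 0.05. Taken apart, S100a10 was 1.03 (SE 0.11) in the 10 µg arrays and 0.66 (SE 0.23) in the 2 µg arrays, and its interaction was -0.37 (SE 0.29). Ifitm3 was 1.02 (SE 0.22) against 0.81 (SE 0.29), Myadm 0.87 (SE 0.11) against 1.04 (SE 0.20), and S100a4 0.65 (SE 0.15) against 0.51 (SE 0.19). For Anxa2 the values were 0.41 (SE 0.08) and 0.30 (SE 0.12), and for the brighter Anxa1 probe set 0.33 (SE 0.12) and 0.09 (SE 0.09). The standard errors of the interaction, 0.19 to 0.40, leave room for differences of the size seen for Anxa1. With diet and number as a block they ran from 0.12 for Ifitm3 to 0.36 for Anxa1.

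**Figure D3:**
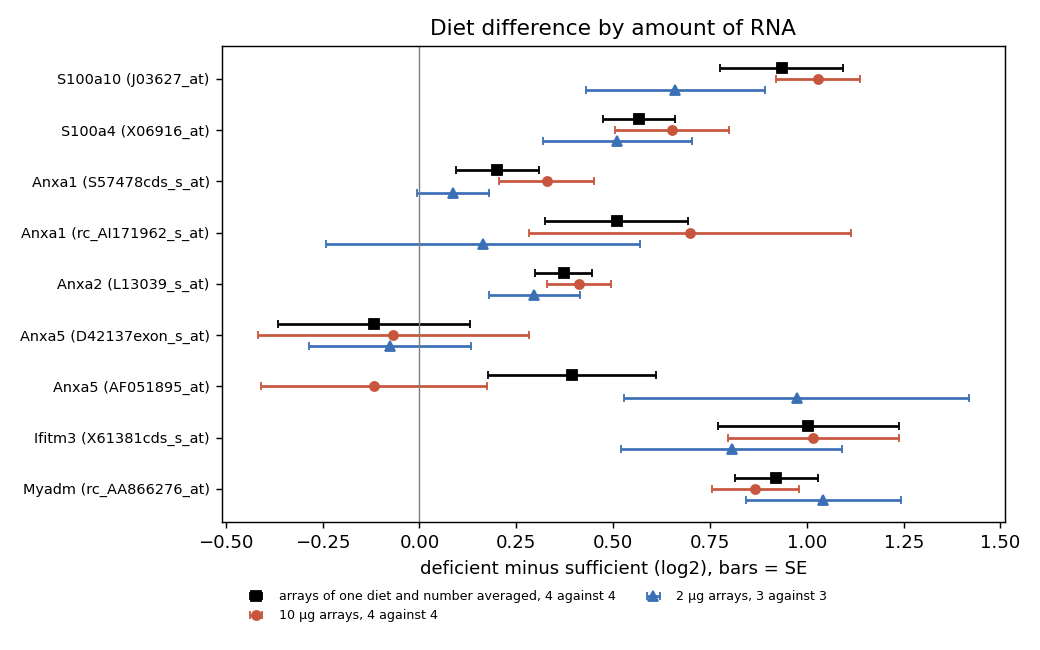
Difference of deficient minus sufficient livers on the log2 scale (horizontal axis) for the 9 probe sets, with bars of 1 SE: averaged animals (black, 4 against 4), 10 µg arrays (red, 4 against 4) and 2 µg arrays (blue, 3 against 3). S100a10, S100a4, Anxa2, Ifitm3 and Myadm are above 0 at both amounts, and the dim Anxa5 probe set AF051895_at is -0.12 at 10 µg and 0.97 at 2 µg.

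Related genes outside the 7 were taken from lists written from general knowledge and tested by diet, each gene by its brightest probe set. Over all 5244 probe sets limma called 38 higher (0.725%) and 52 lower (0.992%) in deficient livers at an adjusted p of 0.05. Together these were 90, or 1.72%. A common median for every array gave 17 higher and 58 lower, and a fit of all 14 arrays with a random block for each animal gave 136 and 114. Taken as 3135 genes, 26 rose and 33 fell, the median difference was 0.05, and 59.3% of the differences were positive.

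The near relatives of the 7 genes did not pass. Of 3 other annexins tested, 0 passed in limma, over a median of 0.26 and with 0 at an unadjusted p under 0.05. Anxa6, an annexin of membrane repair and cholesterol traffic, was 10.53 ± 0.13 in deficient livers against 10.27 ± 0.25 in sufficient ones (a difference of 0.26, SE 0.14, limma adjusted p = 0.452), and Anxa4 differed by 0.30 (SE 0.20). A dimmer Anxa6 probe set, X86086_at, differed by 0.03 (SE 0.25, limma adjusted p = 0.978). Of the other S100 proteins, S100a1, the calcium sensor of muscle, differed by 0.19 (SE 0.11) and S100g, a calcium buffer of epithelia, by 0.09 (SE 0.21), and 0 of the 2 tested passed or had an unadjusted p under 0.05. S100a8, S100a9 and S100b were under the filter.

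Interferon-stimulated genes other than Ifitm3 lay around the median of all genes. Of 11 tested, 0 passed in limma and 1 had an unadjusted p under 0.05, with 7 differences positive and a median of 0.07. Oas1a, which makes the activator of an RNA-degrading enzyme, was 10.27 ± 0.51 in deficient livers against 9.91 ± 0.24 in sufficient ones (a difference of 0.36, SE 0.23, limma adjusted p = 0.546). Rsad2, the antiviral enzyme viperin, had the smallest p and the opposite sign, at -0.42 (SE 0.16, limma adjusted p = 0.255). The Mx1 and Mx2 differences were both 0.12, and that of Irf7 was 0.11. The Oas1a difference, the highest of the list, was 0.14 without deficient animal 3 and 0.06 in the 2 µg arrays alone.

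Of 4 tested genes of the plasminogen system, to which the complex of S100a10 and Anxa2 belongs, 0 passed in limma and 1 had an unadjusted p under 0.05, over a median of 0.05. That one was Plaur, the urokinase receptor, at 0.74 (SE 0.32, limma adjusted p = 0.326), and it was -0.17 in the 2 µg arrays alone. Eno1, an enolase that also serves as a plasminogen receptor, was at -0.16 (SE 0.11, limma adjusted p = 0.578). Plg, plasminogen itself, differed by 0.11 (SE 0.11) and Plau, urokinase, by -0.01 (SE 0.19). In the MAL and MARVEL family of membrane proteins, which holds relatives of Myadm, 0 of 4 passed in limma and 2 had an unadjusted p under 0.05, in opposite directions. Ocln, a tight junction protein, was 7.97 ± 0.18 against 7.29 ± 0.45 (difference 0.67, SE 0.21, limma adjusted p = 0.159), and Cmtm6 was 9.33 ± 0.27 against 9.94 ± 0.23 (difference -0.60, SE 0.16, limma adjusted p = 0.105). Cmtm6 passed, and fell, without deficient animal 3 (-0.73, limma adjusted p = 0.0498) and with the random block (adjusted p = 0.0219), under which Ocln passed too, and rose (0.71, limma adjusted p = 0.0384).

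Among 10 tested partners of annexins and S100 proteins at the membrane and in the actin skeleton, 0 passed in limma and 1 had an unadjusted p under 0.05, while 9 of the 10 differences were positive with a median of 0.10. Msn, moesin, which ties actin to the membrane, was 7.17 ± 0.21 in deficient livers against 6.46 ± 0.29 in sufficient ones (a difference of 0.71, SE 0.20, limma adjusted p = 0.112). Arpc1b, a subunit of the actin-branching complex, differed by 0.23 (SE 0.12). The actins themselves differed by 0.03 for Actb and -0.08 for Actg1, and the galectin Lgals1 by 0.36 (SE 0.32).

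Of 7 tetraspanins, which organize membrane domains as Myadm does, Cd63 rose and 6 did not pass, over a median of 0.01. Cd63, the tetraspanin of late endosomes and exosomes, was 10.995 ± 0.21 in deficient livers against 9.97 ± 0.42 in sufficient ones (a difference of 1.02, SE 0.20, limma adjusted p = 0.0231). Leaving out sufficient animal 2 (adjusted p = 0.0505) or deficient animal 2, 3 or 4 (up to 0.0665) ended the call, as did a common median (0.0812), the 2 µg arrays alone (0.072) and a replicate block by number across diets (0.069). Of 6 genes around Anxa1 and the eicosanoids, 1 rose, 1 fell and 4 did not pass, over a median of 0.05. Alox5ap, which presents arachidonic acid to 5-lipoxygenase, rose 1.59-fold, from 7.44 ± 0.02 to 8.11 ± 0.06 (difference 0.67, SE 0.12, limma adjusted p = 0.0135). Its call was lost at 10 µg (0.63, adjusted p = 0.077) and at 2 µg (0.70, adjusted p = 0.22) when each amount was taken alone, with that block (adjusted p = 0.0581) and without deficient animal 4 (adjusted p = 0.0501). A dimmer Alox5ap probe set, rc_AI104781_at, differed by 0.69 (SE 0.20) and did not pass (limma adjusted p = 0.121). Alox15, a lipoxygenase, fell 3.13-fold (-1.65, SE 0.32, limma adjusted p = 0.0236), a call that ended when sufficient animal 2 or 3, or deficient animal 2 or 4, was left out (up to 0.0932), at either amount alone (0.0569 at 10 µg, 0.418 at 2 µg) with that block (0.0542) and with no filter (0.0516).

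**Figure D4:**
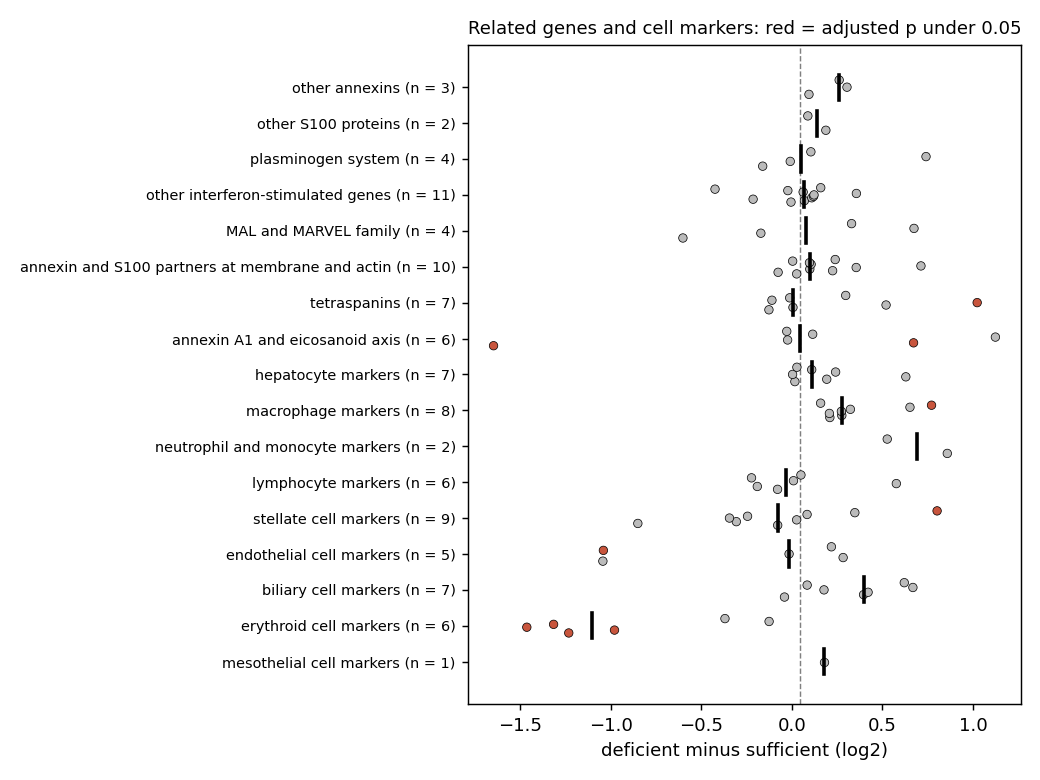
Difference of deficient minus sufficient livers on the log2 scale (horizontal axis) for each tested gene of 8 lists of related genes and 9 lists of cell type markers (rows, n = genes tested); red points passed an adjusted p of 0.05 in limma, grey points did not, black bars are list medians and the dashed line is the median of 3135 genes. Cd63 and Alox5ap are the red points right of 0 among the related genes, where the rightmost point, grey, is Pla2g2a at 1.12, and the erythroid list stands to the left with a median of -1.11.

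Of the 9 marker lists, 3 (macrophage, biliary and erythroid) had summed signals that did not overlap between the diets. The deficient arrays were the higher for macrophage and biliary markers and the lower for erythroid markers. Among single probe sets, 1.56% had all 7 deficient arrays above all 7 sufficient ones, and the share for the reverse was not worked out. No such share was worked out for sums of other genes, so nothing is read from this count. The summed intensity of 9 macrophage markers, scaled to an array mean of 500, ran from 7722 to 8474 over the 7 sufficient arrays and from 8870 to 12820 over the 7 deficient arrays, without overlap. All 8 that were tested were positive, with a median of 0.28. Csf1r, under the filter, had the other sign, at 5.87 ± 0.24 in deficient and 6.12 ± 0.24 in sufficient livers. Ctss, with the highest signal in the sum, differed by 0.65 (SE 0.16, limma adjusted p = 0.0696). All 7 tested hepatocyte markers were positive, with a median of 0.11. The hepatocyte sums overlapped, at 153900 to 203000 in sufficient and 185900 to 220800 in deficient arrays. Of the macrophage list Lgals3, a galectin of macrophages and bile ducts, rose (0.77, SE 0.17, limma adjusted p = 0.0490), although its call was lost in 15 of 18 alternatives. These were each of the 8 fits without 1 animal (adjusted p of up to 0.135), a common median (0.154), quantile normalization (0.0637), a pseudocount of 1 (0.0522), no filter (0.079), 10 µg alone (0.109), 2 µg alone (0.161) and the block by number (0.107). The sum of 8 biliary markers ran from 3577 to 4246 in sufficient and from 4272 to 6029 in deficient arrays. Of the 7 tested, 6 were positive with a median of 0.40, and 0 passed in limma, with 4 at an unadjusted p under 0.05. Those 4 were Krt8 (0.67, SE 0.16), Spp1 (0.62, SE 0.18), Krt18 (0.42, SE 0.13) and Epcam (0.40, SE 0.15). Krt8 and Krt18 are made by hepatocytes too, and Krt19, a bile duct marker, differed by 0.18 (SE 0.25).

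Other marker lists overlapped between the diets, apart from the erythroid one. The sums of 6 neutrophil and monocyte markers were 295 to 702.4 in sufficient and 419.7 to 1148 in deficient arrays, with S100a8, S100a9, Itgam and Cxcr2 under the filter. The sums of 12 lymphocyte markers were 788.9 to 941.4 and 759 to 964.1, with Cd3d, Cd3g, Cd2, Cd8a, Klrd1 and Prf1 under the filter. The 11 stellate cell markers summed to between 7378 and 12310 in sufficient and between 7664 and 13350 in deficient arrays. Of the 9 tested, 4 differences were positive, the median was -0.08, and 1 passed. That one was Vim, a filament protein of mesenchymal cells, which rose (0.80, SE 0.17, limma adjusted p = 0.0357). Col1a1, a collagen, had the other sign and did not pass (-0.85, SE 0.24, limma adjusted p = 0.121). Its dimmer probe sets differed by -0.07 to -0.28. The Vim call was lost without any one of the 4 sufficient animals or deficient animal 2 or 4 (up to 0.111). It was also lost with a common median (0.0987), with no filter (0.0695) and at 2 µg alone (0.451). Among 5 tested endothelial markers 2 differences were positive, the median was -0.02, and 1 passed. That one was Lyve1, a hyaluronan receptor, which fell (-1.04, SE 0.16, limma adjusted p = 0.00731, and 0.0947 at 2 µg alone). The endothelial sums were 991.6 to 1445 in sufficient and 904.8 to 1122 in deficient arrays. Of the mesothelial list only Krt19 and Wt1 were on the array, with sums of 92.77 to 147.3 and 69.78 to 149.1. The 6 erythroid markers summed to between 11780 and 15920 in sufficient and between 3728 and 6800 in deficient arrays, and 4 of them fell, among them Hbb (-1.46, SE 0.18), Hbb-b1 (-1.32, SE 0.17) and Alas2 (-1.23, SE 0.18). The part that these cells have in the values of the 7 genes was not tested. As a measure of RNA quality, GAPDH had a log2 ratio of signal at the 3' over the 5' end that was 0.06 higher in deficient livers (two-sided exact permutation p = 0.743, n = 4), and that of beta-actin was lower by a difference of -0.09 (exact permutation p = 0.457).

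To see which genes varied alike from animal to animal, deviations from the diet mean over the 8 averaged values were compared with those of 3128 other genes. The 8 values share arrays and array scaling, and the coefficients are a description. Those of the closest genes are the highest of 3128, and how high such a choice runs by chance was not worked out. The gene most like Ifitm3 was Actg1, a cytoskeletal actin, with Pearson r of 0.99 (Spearman rho 0.95), then Aspg and Chdh at 0.95 each. S100a10 was most like Scfd2 (r 0.98, rho 0.93), Aifm2 (0.97) and Cd47 (0.92), and Anxa2 was most like Taldo1 (r 0.98, rho 0.98), Ppp3ca (0.97) and Rnh1 (0.93). S100a4 was most like Ap4s1 (0.95), Cript (0.92) and Kcnn1 (0.91), Myadm like Cma1 (0.95), Gpx4 (0.91) and Fev (0.91), Anxa1 like Dtd1 (0.98), Maea (0.95) and Cald1 (0.94), and Anxa5 like Chrm3 (0.97), Xrn2 (0.97) and Ssbp1 (0.96). Their own diet differences had both signs, from -0.30 for Taldo1 to 0.49 for Aspg. Among the 7 genes the highest coefficient was 0.89, for Ifitm3 with Anxa2, followed by 0.69 for Ifitm3 with S100a10. S100a10 and Anxa2, whose proteins form 1 complex, had 0.36, and S100a10 with S100a4 had the lowest, -0.38.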

How the data were processed

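Liver RNA was measured on 14 one-colour Affymetrix rat arrays, with targets made by the maker's usual procedure, per the labels. The authors deposited 1 table with a linear intensity per probe set and array. Which program made it is not given in the sources used here. Its trimmed mean (2% off each end) was 1001.9 to 1002.1 on every array and the median 175.1 to 231, so the deposited intensity had been scaled to one level. No column was left out.

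The 59 control probe sets were set aside, leaving 8740, and array values were multiplied to reach a trimmed mean of 500. Levels are log2(scaled intensity + 16), which understates changes of dim genes. Probe sets under the 40th percentile of the mean level (6.196) were left out, leaving 5244. Symbols came from GEO's platform annotation: 7006 probe sets had 1 symbol, 308 several (none named) and 1426 none listed.

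For the diet comparison the mean shift between RNA amounts over 6 pairs was taken off the 2 µg arrays, and arrays of one diet and number were averaged. Fits used limma 3.58.1 in R 4.3.3 (lmFit, eBayes with a trend, two-sided, Benjamini-Hochberg over all 5244). RNA amount and interaction used all 14 arrays as separate samples. Standard errors of the 7 genes' diet differences come from the 4 against 4 values alone, and those of all other tests from limma. The fits were run on simulated data with independent noise on every array. That noise did not hold the correlation between arrays of one diet and number, so its effect on the fits was not tested.

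Deviations from the group means correlated at 0.202 to 0.351 for arrays of one diet and number at both amounts, above the other numbers in all 6 cases, so these numbers pair the arrays; this rests on the values and the shared number, and the labels do not state it. Same numbers across diets correlated at -0.0763 to 0.0672.

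The 7 genes, the gene lists and the tests were chosen with earlier results of these data known. The genes named were all 7, up to 4 passing (else 2 with the smallest p) from each related list, up to 3 passing markers a list, and the 3 closest in pattern to each of the 7. Other genes were named after their values were seen: Plg, Plau, Mx1, Mx2, Irf7, Actb, Lgals1, Pla2g2a, Krt8, Krt18, Krt19, Spp1, Epcam, Csf1r, Ctss and Col1a1. Alternatives were other scalings, pseudocounts and filters, no variance trend, each amount alone, blocks and leaving out each animal.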

Additional observations from a re-analysis of the deposited data

Results flagged for a closer look

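Ifitm3 in sufficient animals stood out for 1 animal far from the rest. Animal 4 was at 11.67, against 11.17 to 11.22 in the other 3, and its gap to the nearest of them was 0.903 of the whole range, above the 95% critical value of Dixon's test for 4 values. Both of its arrays were high, at 6291.3 and 6741.5. Chance gives such a gap in about 1 in 20 groups, and 22 groups were looked at. Without that animal the Ifitm3 difference was 1.12 in place of 1.00.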

How the results depend on the processing

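The differences of S100a10, S100a4, Anxa2, Ifitm3, Myadm and both Anxa1 probe sets were positive under all 18 alternatives, each with its own range: 0.66 to 1.07 for S100a10, 0.43 to 0.65 for S100a4, 0.30 to 0.42 for Anxa2, 0.81 to 1.19 for Ifitm3, 0.85 to 1.04 for Myadm and 0.09 to 0.33 for the brighter and 0.16 to 0.70 for the dim Anxa1 probe set. The brighter Anxa5 probe set ran from -0.33 to 0.01. The genes were chosen from this contrast, so these signs and ranges are a description. The changed filters and the block by number across diets could not move these differences, and they returned the main values. Of all probe sets, 90 were called by diet, 33 in the 2 µg arrays alone, 250 with the 14 arrays and diet and number as a random replicate block, 78 with a block by number across diets, and 48 (without deficient animal 4) to 94 when 1 animal was left out, with 59 without sufficient animal 3. By RNA amount 0 were called, 2 with the replicate block of diet and number, and 0 to 2 (2 without sufficient animal 1, 1 without sufficient animal 3) when 1 animal was left out; the interaction gave 0 throughout. The blocks changed no call of the 7 genes by amount or interaction. S100g was -0.0453 in the 2 µg arrays alone and -0.0678 (without sufficient animal 2) to 0.2097 (without sufficient animal 4) when 1 animal was left out, and Plaur -0.17 in the 2 µg arrays, with no call either way. The GAPDH ratio ran from -0.0425 to 0.132, below 0 without deficient animal 3, with no call. The cause of these changes was not tested. Dim signal limits the second probe sets of Anxa1 and Anxa5.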
